A study of Mus musculus with 4 samples.

Results

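Ido1, Kynu, Kmo and Wars are 4 of the 30905 genes in a single-cell RNA-sequencing matrix of transplanted mouse hearts, and were taken from it by symbol. Over all libraries pooled, Ido1 and Wars were highest in endothelial-like cells and Kynu and Kmo in dendritic-like cells, which for Kynu did not hold in each library. The 4 genes were selected on their levels across endothelial, macrophage, dendritic and stromal cells and across barcode suffixes of these data. Those levels are therefore given as a description, with no test.

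C57BL/6J mice received a second, heterotopic heart. The donors were Balb/C mice for 2 allogeneic grafts and C57BL/6J mice for 2 syngeneic grafts, and the whole grafts were dissociated on day 5 after transplantation. The matrix merges 4 libraries, told apart by a suffix of 1 to 4 on the cell barcode. No label pairs a suffix with a graft, so allogeneic and syngeneic grafts were not compared. The libraries are treated as parts of 1 pooled sample and not as replicates, and no p-value or standard deviation is given. A group of cells that comes mostly from 1 library may be that library and not a cell type.

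Tryptophan is consumed along competing routes. Indoleamine 2,3-dioxygenase, encoded by Ido1, opens the indole ring in the first and rate-limiting step of the kynurenine pathway outside the liver. Kynurenine monooxygenase, from Kmo, and kynureninase, from Kynu, carry kynurenine on towards 3-hydroxyanthranilate and, through Haao, towards NAD. Tryptophanyl-tRNA synthetase, from Wars, instead charges tryptophan onto its tRNA for protein synthesis. Ido1 and Wars are both well known to be induced by interferon-γ, and local tryptophan depletion and kynurenines are known to restrain T cells.

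The deposited matrix held 53824 barcodes with 96020294 to 166079145 UMIs (unique molecular identifiers, each counting 1 captured transcript) per library. After cells with few genes, many mitochondrial UMIs or a doublet profile were left out, 42395 cells remained. Both numbers are above the number of cells that the study counted, and the cause of that was not tested. Median depth over all deposited barcodes was 4759 to 6319 UMIs in libraries 1 to 3 and 9784 in library 4. The libraries shared 308 barcode sequences, of which 0 pairs had the same expression profile. Clusters were called X-like from fixed marker genes, giving 12863 endothelial-like, 8114 macrophage-like, 433 dendritic-like and 5241 fibroblast-like cells among 11 named classes. A level is the number of UMIs of a gene per 1000000 non-mitochondrial UMIs of the pooled cells (CPM), with an exact Poisson 95% interval. Intervals cover counting error only.

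On the GRCm38 annotation, Ido1 (ENSMUSG00000031551) spans chr8:24584136-24597009 on the minus strand and overlaps no other gene. Kynu (ENSMUSG00000026866) spans chr2:43555329-43682715 on the plus strand, also without overlap. Kmo (ENSMUSG00000039783) spans chr1:175620381-175662116 on the plus strand and overlaps the antisense gene Fh1. Wars (ENSMUSG00000021266) spans chr12:108860030-108894174 on the minus strand and overlaps 3 genes, among them Wdr25 on the opposite strand and the small RNA gene Gm22079 on its own. Whether reads from an overlap were counted by strand is not given in the sources used here. None of the transcripts shared a 31-base stretch with the paralogs Ido2 or Wars2. Of the 31-base stretches of Kynu and Kmo, 30 of 6109 and 63 of 4833 recurred in transcripts of other genes, and of those of Ido1 and Wars 0.

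Of the 4 genes, 1 had an entry in the RefSeq promoter table, Kmo. Its 250 bases upstream of the RefSeq start (GRCm38.p6, chr1:175631943-175632192, plus strand) lie inside the annotated span, which begins farther upstream. The sequence is shown because Kmo was highest in dendritic-like cells in each library. The capitals mark a match to GAGGAAGT, a motif of the type bound by PU.1, a factor of myeloid and B cells.
Kmo: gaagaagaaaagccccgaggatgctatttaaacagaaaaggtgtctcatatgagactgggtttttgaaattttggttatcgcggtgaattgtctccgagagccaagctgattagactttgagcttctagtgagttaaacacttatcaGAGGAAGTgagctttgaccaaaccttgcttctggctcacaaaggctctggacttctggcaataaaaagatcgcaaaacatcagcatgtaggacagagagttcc
The match begins 103 bases before the start. Read on both strands, GAGGAAGT stood in 2.44% of 32851 promoters of the same length. GAAANNGAA, an interferon-regulatory factor type of motif, had 0 matches here and stood in 7.13% of promoters. TTCNNNGAA, a gamma-activated site type of motif, had 0 matches and stood in 7.02%. The motifs were chosen after the levels were seen, and a match is a description of these letters and not of binding.

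Ido1, the enzyme that commits tryptophan to kynurenine, had its highest pooled level in endothelial-like cells, at 17.5 CPM (95% interval 16.7 to 18.4, from 1749 UMIs). By library, endothelial-like cells held 6.72, 1.07, 3.46 and 180 CPM in libraries 1 to 4. Library 4 was far above the others, and its interval of 171 to 190 overlapped none of theirs. Its level was 26.8 times that of library 1 (interval 22.6 to 32.1) and 168 times that of library 2 (123 to 236). Endothelial-like cells made up 30.3% of cells and held 72.2% of all Ido1 UMIs.

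The next Ido1 levels were 3.38 CPM in macrophage-like cells, 3.11 in pericyte-like cells, 2.94 in dendritic-like cells and 2.15 in B-like cells, and the intervals of neighbours in that order overlapped. Macrophage-like cells held 0.332 CPM in library 1 from 2 UMIs, 0 in libraries 2 and 3, and 4.73 in library 4. The zeros allow up to 0.204 and 0.202 CPM, the level of 3 counts. All 17 Ido1 UMIs of dendritic-like cells came from library 4, at 5.20 CPM (3.03 to 8.32), and the 0 counts in libraries 1 to 3 allow up to 2.52, 7.50 and 3.24. Those limits are the level of 3 counts and not the exact Poisson intervals given for library 4. The exact intervals of libraries 1 to 3 reached 3.10, 9.22 and 3.99 CPM. Each overlapped the interval of library 4, so library 4 was not set apart from any single library here.

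Pericyte-like cells held 2.38, 0.314, 1.81 and 46.2 CPM of Ido1, the last from 43 cells. Endothelial markers in those 43 cells stood at 47.4% of their summed level in endothelial-like cells of the same library, with 0 of 9 markers at zero, and their part in the pericyte value was not tested. In macrophage-like cells of library 4 the same markers stood at 0.844% of the endothelial level. In that library the macrophage value of 4.73 (4.29 to 5.21) lay above the 0.885 CPM of T/NK-like and the 2.01 of fibroblast-like cells. It overlapped the intervals of dendritic-like cells, of B-like cells at 5.21 from 3 UMIs, and of 921 cells with no class name at 5.58 (3.12 to 9.21). Of those 921 cells, 766 were in a cluster that passed 6 of 7 granulocyte markers. Another 149 were in a cluster that passed 5 of 7 cardiomyocyte markers. The part of free RNA in these values was not tested. Ido1 had 0 UMIs in 1088 cardiomyocyte-like cells, which allows a share of up to 0.276%, and 0 in 3098 granulocyte-like cells, which allows up to 0.0968%. These limits are on cells with a UMI and not on cells expressing the gene, at median depths of 1296 and 3742 UMIs. Those 2 classes came to 27 and 8 cells in library 4, so they say little about free RNA in that library. Most library 4 cells with such marker profiles were among the 921 cells left unnamed.

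**Figure D1:**
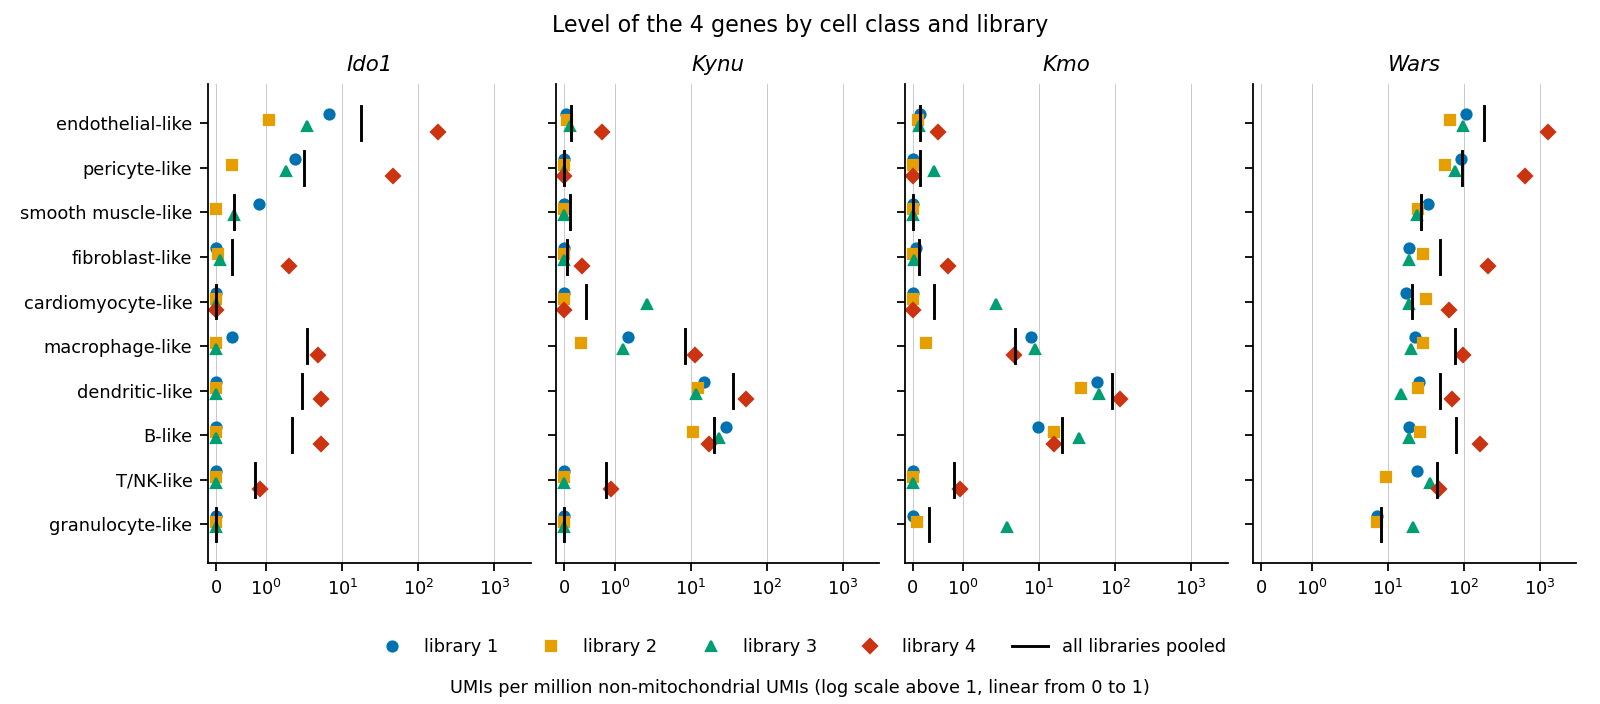
Level of each gene in UMIs per 1000000 non-mitochondrial UMIs (log scale above 1, linear from 0 to 1) by cell class, with 1 symbol for each library and a black bar for all libraries pooled. Library 4 had too few smooth muscle-like and granulocyte-like cells for a symbol, though they are in the bars. Ido1 and Wars of library 4 stand at 180 and 1275 in endothelial-like cells, and Kmo is highest in dendritic-like cells in each of the 4 libraries.

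Wars, which supplies charged tryptophan tRNA, was present in all 11 classes. Endothelial-like cells held 183 CPM (180 to 185), pericyte-like 94.7, B-like 78.7, macrophage-like 76.1, dendritic-like 49.4 and fibroblast-like 48.7. The endothelial level did not overlap the next one, whereas pericyte-like, B-like and macrophage-like cells overlapped in turn. This order is of pooled levels, and the libraries took different shares of each class. Pericyte-like cells held 91.9, 56.6, 76.9 and 633 CPM of Wars in libraries 1 to 4, and B-like cells 19.1, 26.4, 18.9 and 162. In libraries 1 and 3 B-like cells were thus near fibroblast-like cells, which held 19.2 and 18.9. Erythroid-like cells had the lowest level, 1.90 CPM, and granulocyte-like cells held 8.06.

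The library contrast seen for Ido1 recurred for Wars in the 3 largest named classes. Endothelial-like cells held 106, 65.1, 98.5 and 1275 CPM of Wars. Macrophage-like cells held 23.1, 29.2, 20.2 and 96.9, and fibroblast-like cells 19.2, 29.2, 18.9 and 208. The fibroblast-like cells of libraries 2 and 4 were other clusters than those of libraries 1 and 3. In library 2, 794 of 802 were in a cluster led by Prg4, Cxcl5 and Ptx3 that passed 3 of 8 fibroblast markers, and the collagen gene Col1a1 stood at 324 CPM there against 5563 to 8973 in the other libraries. In library 4, 544 of 551 were in a cluster led by Timp1, so library and cluster cannot be told apart. Library 4 was highest in all 3 classes, by 12.1 to 19.6 times in endothelial-like, 3.32 to 4.79 times in macrophage-like and 7.11 to 11.002 times in fibroblast-like cells. The macrophage-like cells too fell in different subclusters by library, as given with Kynu below. In libraries 1 to 3 the endothelial level stayed above the macrophage and fibroblast levels. In dendritic-like cells Wars ran from 15.1 to 26.0 in libraries 1 to 3 and reached 70.6 in library 4. The contrast was weaker in T/NK-like cells, at 1.32 (0.922 to 1.95) to 5.05 times. Smooth muscle-like cells, with 8 UMIs in library 4, showed 1.11 to 1.52 times with wide intervals. Granulocyte-like cells were highest in library 3, but library 4 gave only 2 and 6 cells to their clusters. Another 766 library 4 cells, in a cluster that passed 6 of 7 granulocyte markers, were left unnamed and are not in this class.

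The share of cells with at least 1 UMI also set library 4 apart. Ido1 was detected in 54.6% of endothelial-like cells of library 4 and in 0.707% to 3.45% of those of the other libraries. After each cell was thinned to 1000 UMIs, which left out 970 endothelial-like cells with fewer, the share was 12.2% in library 4 (9.78% to 15.1%) and 0.107% to 0.606% elsewhere. For Wars the thinned shares were 71.7% in library 4 and 6.58% to 9.15% elsewhere. Ido1 was also unevenly spread between cells, with 63.4% of its endothelial UMIs in the top 1% of cells and up to 61 UMIs in 1 cell. The top 1% of cells held 29.1% of the endothelial Wars UMIs.

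The endothelial-like cells of library 4 formed almost a single group. They were 630 cells in all, and 626 of them fell in an endothelial subcluster of 627 cells, which was left unnamed and was led by Ubd, Gbp2b, Serpina3g and Cxcl9, genes known to respond to interferon. This subcluster was 4.87% of endothelial-like cells and held 83.02% of the endothelial Ido1 UMIs and 56.1% of the Wars UMIs. Ido1 stood at 183 CPM there (173 to 192) and Wars at 1285 (1260 to 1310). In the first clustering the same cells were named endothelial-like on 5 of 9 markers, and Wars and Ido1 were themselves among the 10 leading genes of their cluster. Leading genes were read after clustering. Ido1 and Wars were kept out of the variable genes used to cluster, so neither gene itself set the cells apart. Other genes that vary with them could still have taken part.

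Cdh5, the endothelial cadherin, was detected in 96.3% of the library 4 endothelial-like cells and Pecam1 in 96.3%. Their levels were 794 and 786 CPM, against 1174 to 1445 and 899 to 1094 in the other libraries. The markers that did not pass the naming rule, Tie1, Gpihbp1, Emcn and Cldn5, were detected in 64.4% to 79.7% of these cells. Their levels, 127 to 596 CPM, were each below those of the other libraries. The 9 endothelial markers summed to 0.533% of UMIs in library 4 and to 0.803% to 0.963% in the others, with 0 markers at zero. Summed hemoglobin and other erythroid markers were 0.612% of UMIs in library 4 against 0.0712% to 0.0778%, and macrophage markers 0.0749% against 0.0192% to 0.0267%. The part of these other markers in the Ido1 and Wars levels was not tested.

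Outside that subcluster, Ido1 and Wars were lower in every endothelial subcluster. With it left out, a check chosen only after its values had been seen, the endothelial level was 3.24 CPM for Ido1 (2.88 to 3.63) and 87.3 for Wars (85.4 to 89.2). Some of the other 12 subclusters, 1278 cells that were shallow or led by erythroid genes, were kept out of the endothelial-like class. A subcluster of 537 library 2 cells led by Cxcl3 and Spp1 stayed in it. Among all 12, Ido1 ran from 0 to 7.57 CPM. The highest of these, 2388 cells led by the interferon-response genes Ifit1 and Isg15, held 8.19 CPM in library 1 and 4.23 in library 3, from 115 and 11 UMIs. Wars ran from 36.4 to 121 CPM, with the highest level in the arterial-like subcluster of 425 cells (110 to 133). Ido1 had 0 UMIs in the 175 lymphatic-like cells, where Wars stood at 83.6.

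**Figure D2:**
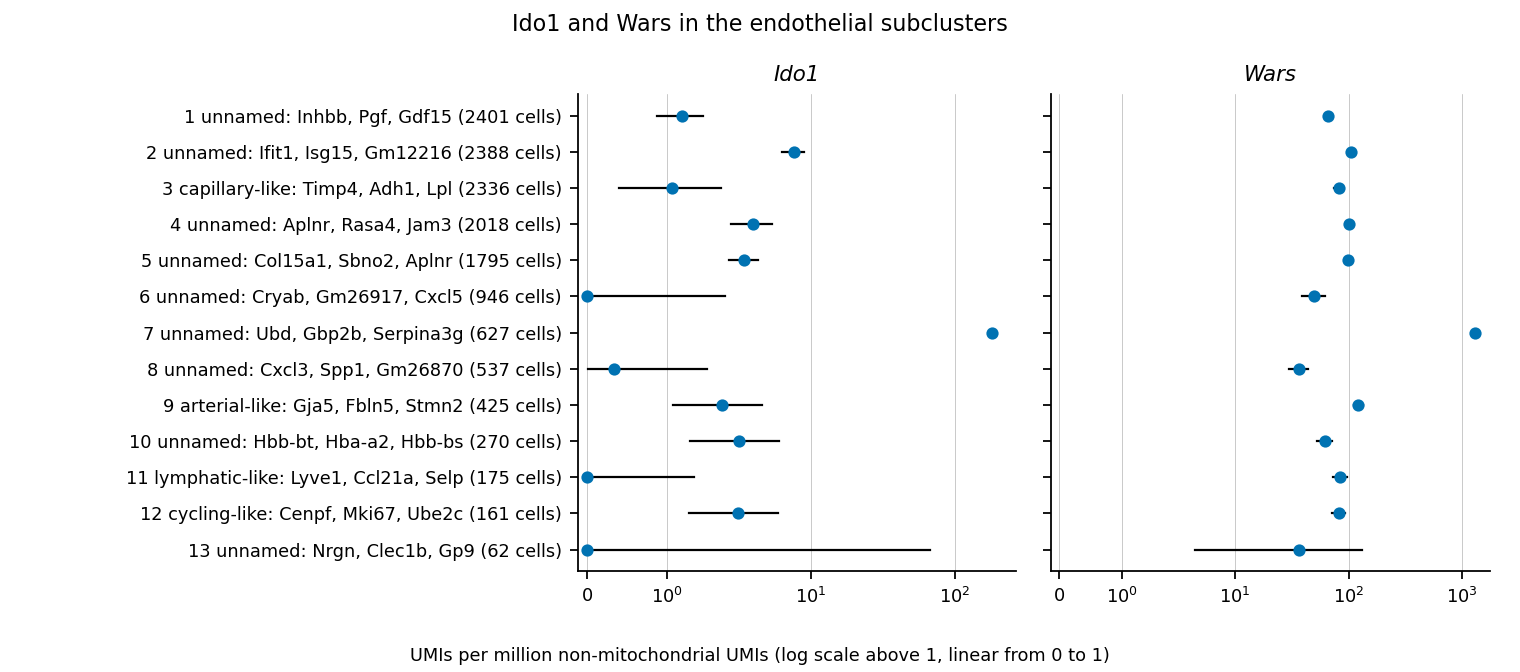
Levels of Ido1 and Wars (UMIs per 1000000 non-mitochondrial UMIs, log scale above 1, linear from 0 to 1) in the 13 endothelial subclusters, with their leading genes and cell numbers. Points are pooled levels and lines exact Poisson 95% intervals, and subcluster 7, almost all from library 4, lies apart at 183 and 1285.

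The name of the library 4 endothelial-like cells depended on the processing. When doublets were kept, 628 of the 630 cells fell in a cluster left unnamed, with 3 of 9 endothelial markers past the rule. When over 500 genes were required per cell, 605 fell in a cluster named from 3 of 5 erythroid markers, although its leading genes were again Ubd, Gbp2b and Cxcl9. Cells of other libraries left the class as well. With doublets kept, 1715 of the 5520 library 2 cells fell in an unnamed cluster. With over 500 genes, 3227 of the 3553 library 1 cells fell in an unnamed cluster led by Hbb-bt. In these 2 settings the endothelial level was 3.51 and 2.05 CPM for Ido1 and 86.8 and 79.3 for Wars. Ido1 was then no longer higher in endothelial-like than in macrophage-like cells. When cells were instead assigned one by one from their own markers, with no clustering, 368 cells of library 4 were endothelial. Their Ido1 level was 188 CPM, against 5.12, 0.856 and 3.47 in libraries 1 to 3, and their Wars level was 1336, against 99.2, 65.8 and 99.2. The 2 levels in endothelial cells of library 4 were thus as large when cells were assigned without clustering.

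Ido1 and Wars were also set side by side in single cells of that subcluster. At 1000 UMIs per cell, Wars was detected in 80.5% of the 77 library 4 cells with an Ido1 UMI and in 70.8% of the 548 without. Median depth before thinning was 9845 and 9347 UMIs in those cells.

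Wars was set beside its enzyme family. Compared between the highest and the lowest library, with 5 CPM added to both, Ido1 and Wars were the 2 members with the 50 UMIs needed in endothelial-like cells, and both passed a 2-fold difference, at log2 4.93 and 4.19. Of all 13321 genes compared, 20.4% passed it. Since the members were chosen with such differences in view, nothing is read from that count. Of the 19 other cytosolic aminoacyl-tRNA synthetases, which charge the remaining amino acids, 8 passed. Their median was log2 0.89, beside 0.53 over all genes, and the most different was Yars, for tyrosine, at 1.41 (49.3 against 15.5 CPM). Library 4 was highest for 12 of the 19 and library 2 for 6.

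In macrophage-like cells 3 of the 4 members passed the 2-fold difference between libraries, beside 23.3% of 12459 genes. Wars differed by log2 2.01, Kynu by 1.605 and Kmo by 1.38, and Ido1 by 0.96. None of the 19 other synthetases passed, with 13 highest in library 2, and their median of 0.76 lay beside 0.57 over all genes. In fibroblast-like cells Wars was the only member with enough UMIs and differed by log2 3.16, beside 33.9% of 13819 genes past 2-fold. There 16 of the 19 synthetases passed, and all 19 were highest in library 2, whose fibroblast-like cells are the Prg4-led cluster, and not, as Wars was, in library 4. Mitochondrial tryptophanyl-tRNA synthetase, Wars2, held 4.42 to 7.07 CPM over the libraries in endothelial-like, 2.04 to 4.18 in macrophage-like and 4.37 to 6.43 in fibroblast-like cells.

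**Figure D3:**
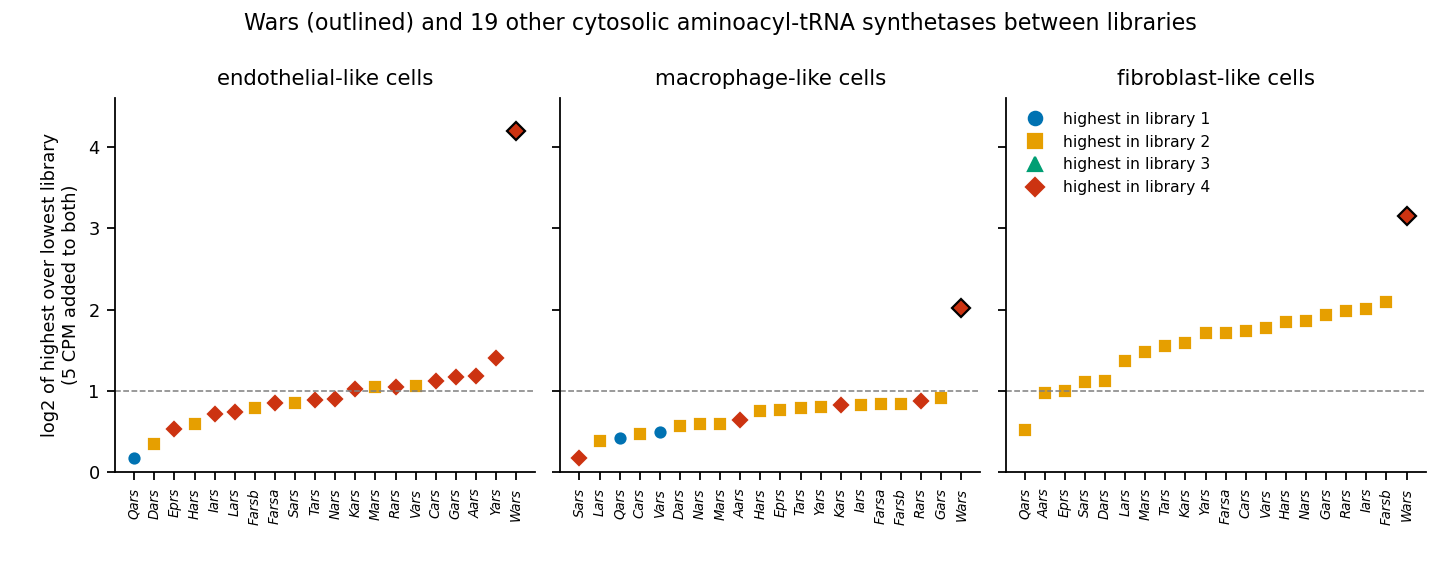
Log2 of the highest over the lowest library level (5 CPM added to both) for Wars, outlined in black, and 19 other cytosolic aminoacyl-tRNA synthetases in 3 cell classes, with color and symbol for the library with the highest level and a dashed line at 2-fold. Wars is at the right end in each panel and highest in library 4, while in fibroblast-like cells the other 19 are highest in library 2.

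Genes of the interferon-γ response, a list that leaves out the 4 members, were mostly highest in library 4. In endothelial-like cells 13 of its 15 genes passed the 2-fold difference between libraries and 11 were highest in library 4, led by the chemokine Cxcl9 at log2 8.60 and the ubiquitin-like Ubd at 8.36. In macrophage-like cells 13 of 15 passed and 12 were highest in library 4. In fibroblast-like cells 12 of 15 passed, with 12 highest in library 4. The median differences were log2 3.38, 4.02 and 3.94, beside 0.53, 0.57 and 0.73 over all genes. Of all genes, 20.4%, 23.3% and 33.9% passed in these 3 classes. Of 10 genes of the amino acid shortage response, 3 passed in endothelial-like cells, with Asns, asparagine synthetase, at log2 1.86 and highest in library 4. Library 4 was highest for 5 of the 10 there. In macrophage-like cells 2 of 9 passed, with 2 highest in library 4 and 4 in library 2. In fibroblast-like cells 5 of 10 passed, with 1 highest in library 4 and 8 in library 2.

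Kynu, kynureninase, had its highest pooled level in dendritic-like cells, at 35.9 CPM (31.2 to 41.2, from 208 UMIs). By library the dendritic level was 15.1, 12.5, 11.9 and 53.2. Library 4 was 3.52 to 4.47 times the others, and its interval of 45.6 to 61.7 overlapped none of theirs. Macrophage-like cells held 8.28 CPM (7.78 to 8.80), made up of 1.50, 0.341, 1.28 and 11.2 by library. Here too library 4 was highest, at 7.52 times library 1 (3.94 to 16.5) and 33.0 times library 2 (14.1 to 102). The macrophage-like cells fell in different subclusters by library. In library 2, 730 of 989 were in an unnamed subcluster led by Cxcl3, Lcn2 and S100a8. C1qa stood at 1002 CPM in macrophage-like cells of library 2, against 2425 to 5924 in the other libraries. Library and subcluster therefore cannot be told apart. Macrophage-like cells are numerous and held 77.1% of all Kynu UMIs.

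Kmo, kynurenine monooxygenase, was also highest in dendritic-like cells, at 90.2 CPM (82.6 to 98.3, from 522 UMIs). The dendritic level was 58.0, 35.0, 61.6 and 117 in libraries 1 to 4, each above every library's level in the other named classes. Macrophage-like cells held 4.78 CPM (4.3998 to 5.18), and 7.81, 0.273, 8.76 and 4.65 by library. In these cells library 4 was not the highest. Library 3 exceeded it 1.88 times (1.53 to 2.30) and library 2 by 32.2 times (12.3 to 120), while libraries 3 and 1 had overlapping intervals. The library 2 cells were mostly the Cxcl3-led subcluster, so this contrast is not between like cells. Dendritic-like cells were 1.02% of cells and held 42.5% of all Kmo UMIs, and macrophage-like cells held 48.0%.

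B-like cells came next for both genes in the pooled levels, with 28 UMIs each and 20.03 CPM (13.3 to 29.0). By library they held 28.7, 10.6, 23.6 and 17.4 CPM of Kynu, from 6, 2, 10 and 10 UMIs. In libraries 1 and 3 the B-like level was above the dendritic level, with overlapping intervals. Library 4 supplied 256 of the 433 dendritic-like cells, and without it Kynu was 21.9 in B-like and 13.5 in dendritic-like cells. B-like cells carried dendritic markers at 48.8% of the dendritic level, among them H2-Oa, which B cells also express, and macrophage markers at 5.36%, and the part of these in the B-like levels was not tested. Kynu was at 0.130 CPM and Kmo at 0.151 in endothelial-like cells. Kynu had 0 UMIs in 3098 granulocyte-like cells and Kmo was detected in 0.129% of them. At 1000 UMIs per cell, Kynu was detected in 4.65% of dendritic-like and 0.890% of macrophage-like cells, and Kmo in 10.0% and 0.631%. T/NK-like cells at the same depth showed 0.162% and 0.0541%. Before thinning, median depth was 13474 UMIs in dendritic-like, 14462 in macrophage-like, 8477 in T/NK-like and 3742 in granulocyte-like cells.

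Dendritic-like cells were not uniform for these genes. Within 5 dendritic groups, Kmo was lowest in the mature dendritic-like group of 78 cells marked by Ccr7 and Fscn1, at 12.1 CPM (5.78 to 22.2). It was 66.4 (51.7 to 83.8) in the cDC1-like group of 54 cells marked by Xcr1, 58.0 (46.8 to 71.0) in the cDC2-like group of 123 cells, and 140 (97.4 to 194) in 22 plasmacytoid dendritic-like cells. An unnamed group of 156 cells, 155 of them from library 4 and led by Ly6i and Cxcl10, held 153 (137 to 171). Groups were named against the other dendritic groups alone, so passing no marker does not mean that the markers were absent. On that scale the unnamed group passed 0 markers of any of the dendritic subtypes. Fcgr1, a macrophage marker, and Fcgr4 were among the leading genes of the unnamed group. This group held 314 of the 522 Kmo and 118 of the 208 Kynu UMIs of dendritic-like cells. Dendritic-like cells of library 4 carried macrophage markers at 16.1% of the macrophage level, and their part in these values was not tested.

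Library make-up differed between the groups, with 62 of the 78 mature cells from library 4, so groups were also compared within that library. Kynu was then 45.2 CPM in the mature, 45.3 in the cDC1-like, 46.9 in the plasmacytoid and 57.8 in the unnamed group, with overlapping intervals. Kmo still differed, at 14.5 (6.64 to 27.6) in the mature group against 70.4 (46.8 to 102) in the cDC1-like and 154 (137 to 172) in the unnamed group. Ido1 had 7 UMIs in the mature group and 9 in the unnamed group, of 17 in all.

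The libraries held different dendritic cells. The cDC2-like group had 0 cells from library 4, and its marker Cd209a stood at 0.611 CPM in dendritic-like cells of that library against 265 to 461 in the others. The cDC1-like group gave the closest like-for-like view, with 14, 17 and 22 cells in libraries 1, 3 and 4. Kmo in it was 74.9, 52.6 and 70.4 CPM, and the intervals overlapped throughout. Kynu in it was 6.24, 6.19 and 45.3, from 2, 2 and 18 UMIs, and the library 4 interval (26.8 to 71.5) lay above the other 2, which reached 22.5 and 22.4.

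Among myeloid subclusters, Kynu and Kmo had different orders within the macrophage-like cells. Kynu was 16.3 CPM (14.6 to 18.2) in an unnamed subcluster led by Nos2 and Inhba, 12.99 (11.5 to 14.6) in infiltrating monocyte-like cells marked by Ly6c2, and 1.35 (0.864 to 2.01) in resident macrophage-like cells of libraries 1 and 3. Kmo was 2.71 (2.02 to 3.56), 3.70 (2.94 to 4.604) and 8.76 (7.44 to 10.2) in the same 3 subclusters. The resident macrophage-like cells of libraries 1 and 3 were thus lowest of the 3 for Kynu and highest for Kmo. Not every subcluster split the genes this way. The cycling subcluster, 1.58% of macrophage-like and dendritic-like cells together, held 2.85% of their Kynu and 4.14% of their Kmo UMIs. The largest subcluster, unnamed and with 22.8% of these cells, held 28.1% and 20.1%. These shares are not levels, because the cells differed in depth. Median depth was 28256 UMIs in the cycling and 17906.5 in the largest subcluster, against 12787 to 13185.5 in the 3 subclusters above. A second resident macrophage-like subcluster, with 248 of 252 cells from library 2, held 0.442 CPM of Kynu and 0.885 of Kmo, from 1 and 2 UMIs. The Nos2-led and monocyte-like subclusters came entirely from library 4, so library and subcluster cannot be told apart.

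Wars was 130 CPM in the infiltrating monocyte-like cells (125 to 135), 94.996 in the Nos2-led cells and 20.7 in the resident macrophage-like cells of libraries 1 and 3. Ido1 in macrophage-like cells was highest in an unnamed subcluster of 1950 cells, at 6.11 CPM (5.31 to 6.99), and had 1 UMI in 1269 resident macrophage-like cells. A further 393 myeloid cells, shallow at a median of 1216 UMIs and led by the endothelial genes Ly6c1, Timp3 and Tm4sf1, held 31.2 CPM of Ido1 and stayed outside the macrophage-like class.

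**Figure D4:**
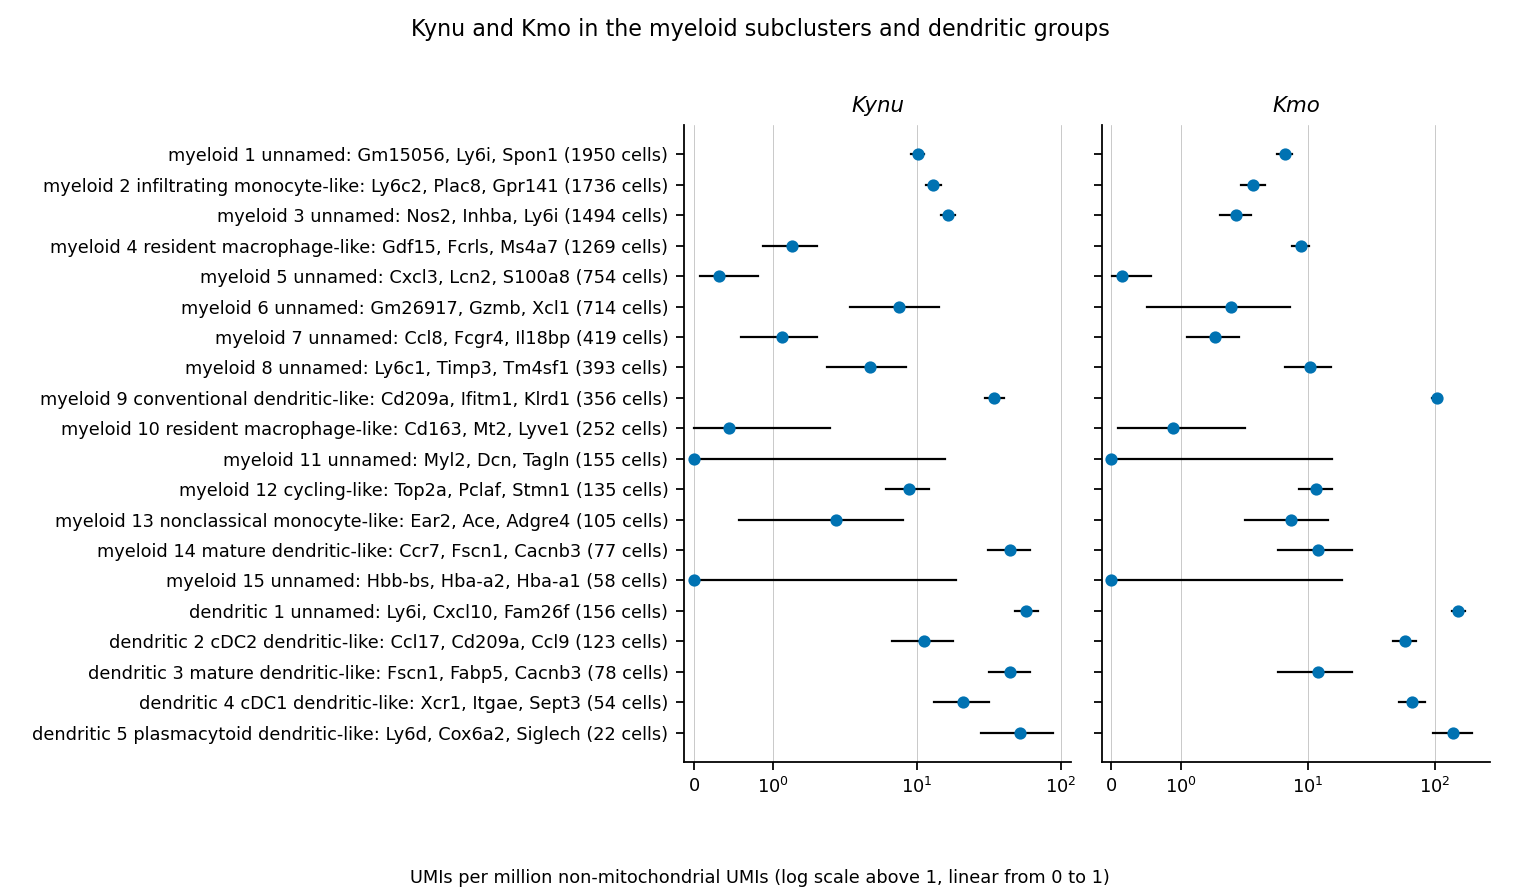
Levels of Kynu and Kmo (UMIs per 1000000 non-mitochondrial UMIs, log scale above 1, linear from 0 to 1) in the 15 myeloid subclusters and in the 5 groups into which dendritic-like cells were divided, with leading genes and cell numbers. Points are pooled levels and lines exact Poisson 95% intervals, and Kmo stands at 12.1 in the mature dendritic-like group, below the 58.0 to 153 of the other 4 groups.

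Set against other genes that handle tryptophan and kynurenine, differences of 2-fold with 5 CPM added were counted. In macrophage-like over endothelial-like cells, where 9.33% of 14453 genes were higher and 16.6% lower, 1 member was higher (Kynu) and 2 were lower (Ido1 and Wars). Kmo, at log2 0.92, did not reach 2-fold on this scale. Over the 9 kynurenine pathway genes with enough UMIs, of 13 in the list, 1 was higher and 1 lower, both of them members. A gene below 5 CPM in both classes cannot reach 2-fold on this scale. Haao, at 1.92 CPM in macrophage-like and 0.0903 in endothelial-like cells, was such a gene, so the count says little about genes this low. Of the 19 other synthetases, 0 were higher and Yars was lower. The large neutral amino acid transporter Slc7a8 stood at 88.7 CPM in macrophage-like and 1.57 in endothelial-like cells, the only one of 5 transporters past 2-fold.

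In dendritic-like over macrophage-like cells, 4.4% of 12617 genes were higher and 4.57% lower. Kynu and Kmo were higher, at log2 1.62 and 3.28, and Ido1 and Wars were at -0.08 and -0.58. Of the 9 kynurenine pathway genes, which include the members Ido1, Kynu and Kmo, 3 were higher and 0 lower. Besides Kynu and Kmo this was Haao, which acts after kynureninase, at 14.3 against 1.92 CPM. Since the members were chosen on such levels, nothing is read from that count. Il4i1, an amino acid oxidase that also takes tryptophan, was at 192 CPM in dendritic-like and 2.84 in macrophage-like cells. Ahr, the aryl hydrocarbon receptor to which kynurenines can bind, was at 96.9 and 24.3. In fibroblast-like over endothelial-like cells, 9.08% of 14971 genes were higher and 9.16% lower, and of the 2 members with enough UMIs both were lower, Ido1 at log2 -2.08 and Wars at -1.81.

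The other kynurenine genes did not follow Ido1 in endothelial-like cells. Ido2 stood at 0.130 CPM there, Haao at 0.0903 and Afmid, the formamidase after the dioxygenases, at 0.241. The transaminases Kyat1 and Kyat3, which make kynurenic acid, held 3.70 and 4.39 CPM in endothelial-like cells and were highest in cardiomyocyte-like cells, at 9.44 and 15.4. Il4i1 in dendritic-like cells was 116, 200, 136 and 234 CPM by library, and Haao was 17.6, 22.5, 17.3 and 11.3. Cyp1a1, a target of the aryl hydrocarbon receptor, was highest in endothelial-like cells of library 1, at 22.1 CPM, and lowest in those of library 4, at 1.12. The list of that receptor and its targets did not share 1 direction. Of its 6 genes with enough UMIs, 3 passed 2-fold between libraries in endothelial-like cells, beside 20.4% of all genes. Library 1 was highest for 3 of the 6, and libraries 2, 3 and 4 for 1 each.

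**Figure D5:**
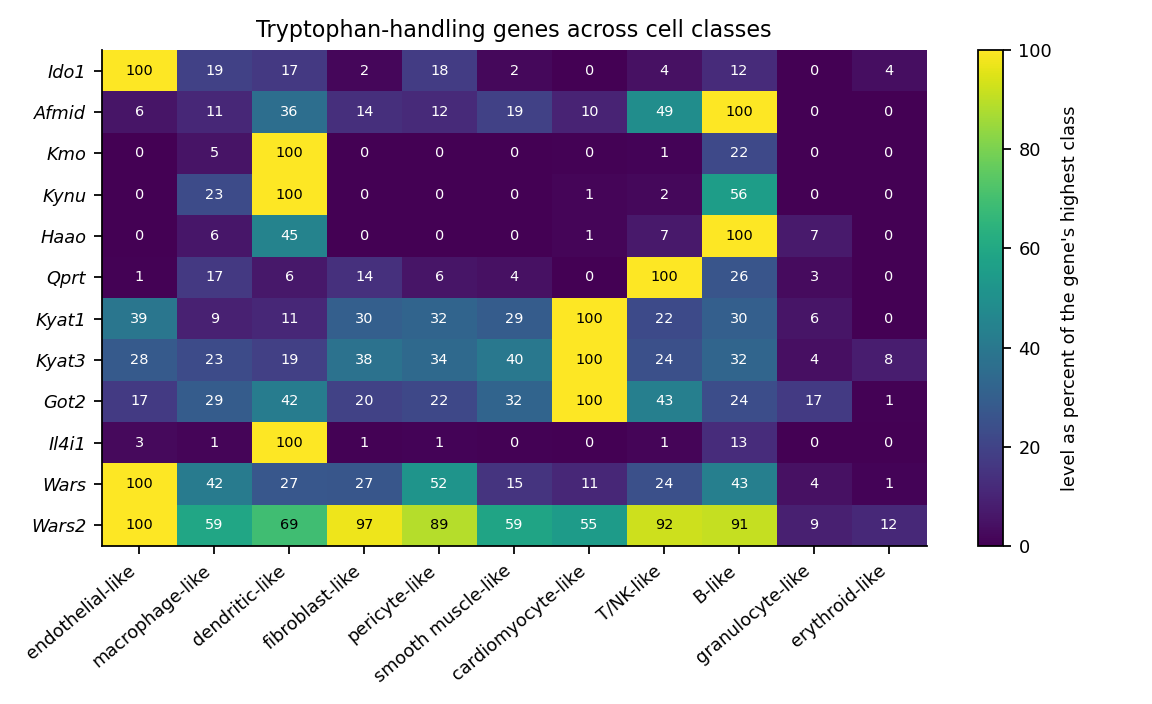
Level of each gene in 11 cell classes as a percent of that gene's highest class, for the genes of the tryptophan lists with at least 50 UMIs and 2 CPM in a class. Each row is scaled to its own maximum, so rows are not comparable in level, and the maximum falls in endothelial-like cells for Ido1 and Wars and in dendritic-like cells for Kmo, Kynu and Il4i1.

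Likeness of pattern was measured as Pearson's r of log2(CPM + 5) over 34 class-by-library units, which share libraries, depth and clusters, among 10937 genes. The genes most like Ido1 were Serpina1b, Moxd1, Ifi44l, Ubd and Tspan8, at 0.94 to 0.88. Ido1 stood at 180 CPM in 1 unit, the endothelial-like cells of library 4, and the next unit held 6.72. Each r of Ido1, that with Wars included, therefore rests largely on that unit. Pericyte-like cells of library 4, at 46.2 CPM, were too few to be a unit. Those most like Wars were Xaf1, Rmdn3, Tgtp2, Gbp7 and Gbp4, at 0.85 to 0.83. Kynu was nearest to A530040E14Rik, H2-DMb2, AC125149.3, Kmo and Rnase6, at 0.93 to 0.91, and Kmo to Kynu, Rnase6, H2-DMb2, Bcl11a and Cacna1s, at 0.92 to 0.90. Among the members, r was 0.80 for Ido1 with Wars and 0.92 for Kynu with Kmo. Between these pairs it was 0.10 for Ido1 with Kynu and 0.00 for Ido1 with Kmo, and 0.12 and -0.01 for Wars with Kynu and with Kmo. The members were chosen on their levels over such classes and libraries, so nothing is read from the r between them. Kynu and Kmo had their highest levels in dendritic-like and B-like units, so their r rests largely on those few units.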

How the data were processed

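Single-cell libraries of 4 mouse heart grafts were made by the authors with 10x Chromium 3' v3 chemistry. The authors deposited 1 merged matrix of UMI counts per gene and cell, not normalized. Its header names software version 3.0.0, and the submitters' processing notes name Cell Ranger, CASAVA 1.8 and Seurat, with the mm10 genome. From these counts, the cells used had over 200 detected genes and a mitochondrial share of UMIs under 20%, and in each library the 5% with the highest simulated-doublet score were left out (2231 cells). Cells were clustered with the Leiden method on 10 principal components of 2000 variable genes, at resolutions of 0.8 and 0.5. The 4 members, the genes of the pathway lists and mitochondrial genes were kept out of the variable genes. A cluster was named when at least 3 markers of a class were 2-fold higher and detected in at least 10% of its cells. The name was withheld when markers of another class outnumbered its own among the 10 leading genes. It was also withheld below 1/3 of the libraries' median depth if no own marker was among those genes. Unnamed clusters could thus pass 3 markers, as did 1 of 1864 cells with 7 of 9 endothelial markers. An exception was made for 1 myeloid subcluster of 356 cells. Its best match was cDC1, but its leading genes held the cDC2 markers Cd209a and H2-Oa. Markers of all dendritic subtypes were counted as its own there, and it was named dendritic. It gave 356 of the 433 dendritic-like cells. UMIs were then pooled by class and library. Poisson and Clopper-Pearson 95% intervals, and thinning to 1000 UMIs, were used as described. Lists were compared by a 2-fold rule among genes with at least 50 UMIs in the 2 groups. Every level was a description of 1 pooled sample, so no test was made. The members and all lists were chosen with earlier results of these data known. All 4 members were named by symbol, and from each list the counts and at most 4 genes at the extremes. Marker genes and subcluster leaders were named where a value turned on them, and Haao, Ahr, Wars2, Afmid, Ido2 and the transaminases were named for their place in the pathway after their values were seen. Gene spans came from the GENCODE annotation of GRCm38 and the promoter from RefSeq. The scripts were tested on simulated counts. Python 3.11.15, numpy 2.4.6, scipy 1.17.1, scikit-learn 1.9.0, igraph 0.11.9 and leidenalg 0.10.2 were used.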

Additional observations from a re-analysis of the deposited data

Results flagged for a closer look

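In the main setting 11429 barcodes were left out, by the gene and mitochondrial filters or as doublets. Some of them enter the repeats with doublets kept or with no filter. These 11429 barcodes also held UMIs of the 4 genes, each above the 0.0558 CPM that 3 counts give there. Ido1 was at 5.15 CPM in them (4.56 to 5.80), Kynu at 2.51 (2.11 to 2.97), Kmo at 1.97 (1.61 to 2.38) and Wars at 86.1 (83.6 to 88.6). Of these, the 2231 cells left out as doublets held 5.51 CPM of Ido1 and 91.0 of Wars, and the 9198 left out by the filters 4.27 and 74.1. No barcode suffix is labelled as a control, so these levels are set against the floor of 3 counts alone.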

How the results depend on the processing

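Levels are relative to pooled depth, and 3 counts set the lowest level that could be seen. Of the planned repeats of the 8 main levels, 39 moved by less than the counting interval and 41 by more. No paired analysis was possible because cells could not be matched to grafts and no test was made.

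With doublets kept, the level was 3.51 CPM for Ido1 and 86.8 for Wars in endothelial-like cells and 79.1 for Wars in macrophage-like cells. With over 500 genes per cell it was 2.05 for Ido1 and 79.3 for Wars in endothelial-like cells. In these 2 of 11 settings Ido1 was not higher in endothelial-like than in macrophage-like cells. Nearly all library 4 cells lost the endothelial name there, and so did many cells of other libraries. The part of each in these levels was not tested. With no filter on cells endothelial Wars was 180, and with resolutions of 1.6 and 1.0 endothelial Ido1 was 18.8 and Wars 192. Without the Ubd-led endothelial subcluster, a setting chosen after seeing the data, endothelial Ido1 was 3.24 and Wars 87.3. Means of each cell's CPM gave 10.97 for endothelial Ido1, 148 for endothelial Wars and 80.2 for macrophage Wars. Marker gates gave 18.6 for endothelial Ido1, 193 for endothelial Wars, 85.3 for macrophage Wars, 6.31 for macrophage Kmo and 8.98 for macrophage Kynu. They left 2 dendritic cells, with 0 for Ido1 and Kmo and 85.3 for Kynu.

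Leaving out each library in turn gave 3.24 to 27.4 for endothelial Ido1 and 86.5 to 253 for endothelial Wars. For dendritic-like cells it gave 0 to 3.70 for Ido1, 13.5 to 41.3 for Kynu and 55.6 to 98.5 for Kmo. For macrophage-like cells it gave 0.929 to 9.35 for Kynu, 4.23 to 5.39 for Kmo and 24.4 to 83.7 for Wars. The value without library 4 was the lowest in each, except for Kmo in macrophage-like cells. Wars was higher in endothelial-like than in macrophage-like cells in 11 of 11 settings. With over 500 genes per cell it was higher by only 1.043 times, at 79.3 against 76.0 CPM. Kynu was higher in dendritic-like than in macrophage-like cells in 11 of 11 settings and Kmo in 10 of 11. The 2 gated dendritic cells are 1 of these settings for both genes, and were the exception for Kmo. Of the repeats of 7 other levels, 46 moved by less than the interval and 24 by more.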
